A study of Mus musculus with 20 samples.

Results

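Ubd and 8 interferon-induced genes (Ifit1, Ifit2, Ifit3, Isg15, Irf1, Irf7, Mx1 and Usp18) were followed in liver and white adipose tissue (WAT) of staggerer and wild-type mice. A probe belonged to the set when the scanner files gave it one of these 9 gene names, which took 13 of the 41174 probes on the array: 2 each for Ifit2, Ifit3, Irf1 and Mx1 and 1 each for the other genes. Total RNA was hybridised in 1 colour (Cy3) to 20 Agilent whole-genome mouse arrays, 5 per group. The groups were sg/sg liver, WT liver, sg/sg WAT and WT WAT, with 1 array for each replicate number in a group. All mice were male C57BL/6 animals aged 5 months that had eaten food with 35% fat for 6 weeks, so no group on another diet is compared here. The sg/sg mice (RORasg/sg in the labels) are homozygous for staggerer, a natural deletion in Rora, which removes working nuclear receptor RORα from every cell of the animal and not from liver or fat alone. The fat depot is not named in the labels. The question is how these genes differ between the genotypes in each tissue.

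Interferons signal through receptors, the kinases JAK1, JAK2 and TYK2, and STAT transcription factors. Type I interferon acts at the interferon-stimulated response element (ISRE), and interferon-gamma at the gamma-activated site (GAS). The IFIT proteins bind viral RNA or its translation machinery, Mx1 is an antiviral GTPase, and Isg15 encodes a ubiquitin-like protein that is conjugated to other proteins. Usp18 removes ISG15 from its targets and also damps the type I receptor. Irf1 and Irf7 encode transcription factors, Irf1 as an early target of interferon-gamma and Irf7 as an amplifier of type I interferon genes. Ubd encodes FAT10, a ubiquitin-like protein that marks proteins for the proteasome and is known to be induced by interferon-gamma together with tumour necrosis factor. In obese adipose tissue, macrophages are known to gather and to release such inflammatory signals.

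The promoters are shown because the 9 genes are known to answer to different signals. The RefSeq promoter table of build GRCm38.p6 matched 7 of the 9 genes, with 9 start sites. Windows of 300 bases, of which 250 lie before a start, were searched on both strands for an ISRE core (GAAA, any 2 bases, GAAA), a GAS (TTCNNNGAA), the common consensus of the kappaB site bound by NF-kB, and the ROR response element (ANTAGGTCA or ANTGGGTCA). The bases before the start are shown for 5 genes, Ubd and Irf1 with a kappaB match and Ifit1, Ifit3 and Isg15 with ISRE cores, with matches to the ISRE core, GAS or kappaB in capitals. Ubd lies at chr17:37193642-37193891 (plus strand), Irf1 at chr11:53769764-53770013 (plus strand), Ifit1 at chr19:34640639-34640888 (plus strand), Ifit3 at chr19:34583279-34583528 (plus strand) and Isg15 at chr4:156200819-156201068 (minus strand), each written 5′ to 3′ along the gene.
Ubd: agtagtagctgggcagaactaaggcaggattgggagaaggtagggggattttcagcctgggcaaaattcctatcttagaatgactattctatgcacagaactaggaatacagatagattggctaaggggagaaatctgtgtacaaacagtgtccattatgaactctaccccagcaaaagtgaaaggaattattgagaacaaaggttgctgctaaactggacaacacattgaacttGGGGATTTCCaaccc
Irf1: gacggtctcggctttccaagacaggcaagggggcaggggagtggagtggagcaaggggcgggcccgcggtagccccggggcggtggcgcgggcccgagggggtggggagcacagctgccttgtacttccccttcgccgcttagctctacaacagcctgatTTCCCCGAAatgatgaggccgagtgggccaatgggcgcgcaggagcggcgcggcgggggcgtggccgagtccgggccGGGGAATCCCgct
Ifit1: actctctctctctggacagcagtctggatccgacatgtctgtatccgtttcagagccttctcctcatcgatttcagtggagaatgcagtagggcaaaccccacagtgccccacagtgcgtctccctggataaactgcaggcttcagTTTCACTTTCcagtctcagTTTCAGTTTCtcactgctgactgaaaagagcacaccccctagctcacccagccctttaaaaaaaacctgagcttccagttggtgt
Ifit3: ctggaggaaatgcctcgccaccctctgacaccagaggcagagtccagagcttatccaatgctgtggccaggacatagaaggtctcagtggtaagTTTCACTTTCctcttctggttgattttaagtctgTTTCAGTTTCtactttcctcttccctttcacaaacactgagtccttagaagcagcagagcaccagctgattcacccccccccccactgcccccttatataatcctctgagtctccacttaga
Isg15: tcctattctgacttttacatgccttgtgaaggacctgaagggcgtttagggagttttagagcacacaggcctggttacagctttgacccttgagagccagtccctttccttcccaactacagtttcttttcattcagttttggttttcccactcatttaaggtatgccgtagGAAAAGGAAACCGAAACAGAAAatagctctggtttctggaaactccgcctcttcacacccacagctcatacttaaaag

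The ISRE core was matched in the windows of Ifit1 (first bases at -104 and -85 from the start), Ifit3 (at -156 and -122) and Isg15 (3 overlapping matches at -78, -72 and -66). It occurs in 3.45% of 32544 different promoter windows. The Ubd window held no ISRE core or GAS but a kappaB match at -15. That of Irf1 held a GAS at -90 and a kappaB match at -13. An Ifit2 window held a GAS at -241 that overlaps a kappaB match at -247. GAS occurred in 8.33% and kappaB in 8.49% of all windows. Irf7 and the second windows of Irf1 and Ifit2 held none of these motifs. No window of the 7 genes matched the ROR element, which occurs in 1.46% of all windows. The kappaB consensus (GGGRNNYYCC, with R for A or G and Y for C or T) was taken after a narrower motif had given no match in these windows. These are matches of letters in short windows and were not tested for binding.

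Before the comparisons, 3 facts of the arrays bear on the values. Levels are log2 of the intensity minus the log2 of the 75th percentile of the same array, which was 646 to 898 on the sg/sg and 818 to 1089 on the WT arrays of liver, and 1346 to 2054 on the sg/sg and 1936 to 2604 on the WT arrays of WAT. In liver the genotypes lay largely on different slides. Slide 1 held 4 WT arrays, slide 2 held 3 sg/sg arrays and 1 WT array, and slide 3 held 2 sg/sg arrays, whereas each of the 3 WAT slides held both genotypes. Rora itself was lower on every sg/sg array than on every WT array with each of its 3 probes in both tissues; the probe at 69410920 to 69410979 of chromosome 9 (build mm7) changed by -2.88 (SE 0.12, adjusted p = 3.8e-06) in liver and -2.72 (SE 0.15, adjusted p = 4.7e-05) in WAT. Whether these probes lie in the deleted stretch is not settled by the files. Nothing in the labels says how tissue was shared between arrays, so p-values measure the spread between these arrays.

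Ubd was far lower in WAT of sg/sg mice. The probe lies at 35348129 to 35348188 of chromosome 17 (mm7). Its levels were -1.14, -0.20, -1.22, -0.85 and 1.14 on sg/sg WAT arrays 1 to 5, against 5.10, 5.50, 4.59, 4.84 and 4.40 on WT WAT arrays 1 to 5. All WT arrays were higher than the highest sg/sg array, number 5, by more than 3 log2 units. On the intensity scale the sg/sg arrays ran from 698 to 4247 and the WT arrays from 43111 to 109965, none of them saturated. In WT WAT, Ubd was above 97.6% to 99.2% of all probes in brightness, while it lay at percentiles 66.3 to 83.3 on sg/sg arrays. The mean level was -0.45 ± 0.98 in sg/sg WAT and 4.88 ± 0.43 in WT WAT (SD, n = 5 each). The change was -5.34 (SE 0.43, 95% confidence interval -6.29 to -4.39), a 40.4-fold lower level in sg/sg mice (limma, adjusted p = 0.000239). Of the 2962 WAT probes called lower, 4 had a larger decrease. In bulk tissue, fewer cells of a type and less RNA per cell cannot be told apart.

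The difference was present on each WAT slide, with -5.37 on slide 1 (2 sg/sg and 2 WT arrays), -4.44 on slide 2 (2 and 1) and -6.31 on slide 3 (1 and 2). With slide as a fixed block it was -5.37 (SE 0.49, adjusted p = 0.00168). Leaving out sg/sg replicate 5, the highest sg/sg array, gave -5.74 (SE 0.27), and leaving out any other array gave between -5.46 and -5.15.

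In liver Ubd was also lower in sg/sg mice, at levels of -1.79, -1.66, -3.90, -1.98 and -1.20 on sg/sg arrays 1 to 5, against -0.60, 1.35, -0.41, -0.12 and -0.32 on WT arrays 1 to 5. The genotypes did not overlap. The sg/sg array 3 was the lowest and the WT array 2 the highest, each standing apart from the other 4 arrays of its group. The mean was -2.10 ± 1.05 in sg/sg liver and -0.02 ± 0.79 in WT liver (SD, n = 5 each), a change of -2.08 (SE 0.51, 95% confidence interval -3.21 to -0.95, 4.24-fold, limma adjusted p = 0.0261). This call was fragile. Without WT replicate 3 the adjusted p was 0.0513 and without WT replicate 4 it was 0.0596, while the change stayed at -2.18 and -2.11. Within slide 2, the only slide with both genotypes, the change was -2.13 (SE 0.98, 3 sg/sg arrays against 1 WT array). With slide as a fixed block, a fit that rests on the same arrays, the adjusted p was 0.611.

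**Figure D1:**
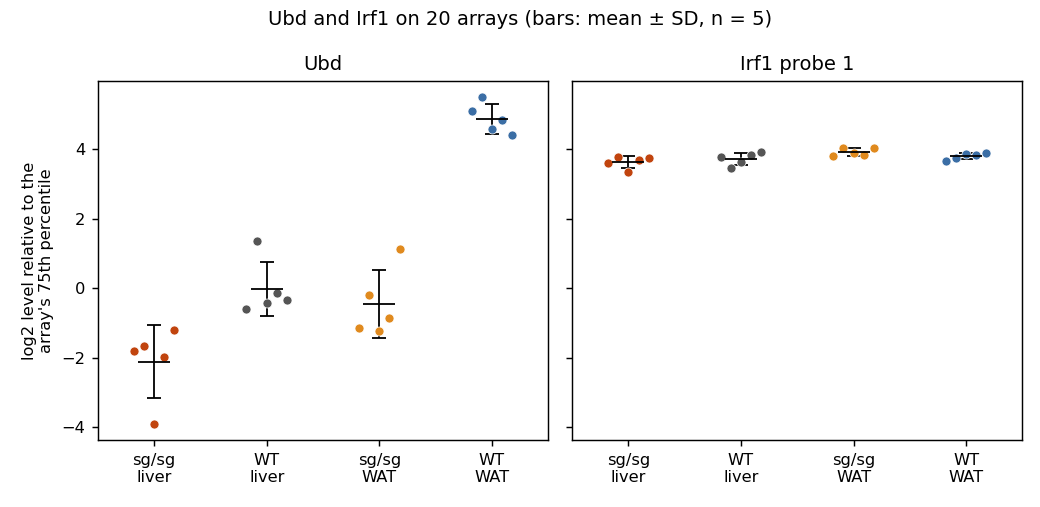
Levels of Ubd (left) and of Irf1 probe 1 (right) on the 20 arrays, as log2 relative to the 75th percentile of each array; points are arrays and bars the mean ± SD of 5 arrays. Ubd averages -0.45 in sg/sg WAT and 4.88 in WT WAT, and -2.10 in sg/sg liver and -0.02 in WT liver, while Irf1 lies between 3.35 and 4.04 on every array.

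The difference of the genotype effects on Ubd (WAT minus liver) was -3.26 (SE 0.71, adjusted p = 0.00443). It lay at -3.89 to -3.03 in 30 alternative settings and passed the threshold in 29. The exception was slide as a fixed block, a setting chosen after seeing the data, which gave -3.25 (SE 1.14, adjusted p = 0.154). Of the 13 probes Ubd was the only one past the threshold in this test, where 16.4% of all probes passed (7.90% with a positive and 8.46% with a negative difference). The order of the group means was WT WAT, WT liver, sg/sg WAT and sg/sg liver. WT WAT stood apart from the rest, but the ranges of WT liver and sg/sg WAT overlapped, as did those of sg/sg WAT and sg/sg liver. In WT mice Ubd was 4.91 log2 units (SE 0.50) higher in WAT than in liver.

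Apart from Ubd no probe of the set was called in either tissue. In WAT 1 of 13 probes passed, lower, where 21.9% of all 32315 probes tested passed, 12.7% higher and 9.17% lower. In liver 1 of the 11 probes that were bright enough to test passed, lower, where 15.0% of 24675 probes passed, 8.62% higher and 6.42% lower. The median change over the tested probes was -0.00 in WAT, where it was 0.08 over all probes, and -0.09 in liver, where it was 0.04. The groups did not overlap for 1 of 13 probes in WAT, with sg/sg lower (20.8% of all probes, 8.67% with sg/sg lower), and for 2 of 11 in liver, Ubd and Ifit3 probe 1, both with sg/sg lower (12.3% of all probes, 5.35% with sg/sg lower). A filter on brightness removed Ifit2 probe 2 and Mx1 probe 2 from the liver test, as neither was well above background on any liver array.

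**Figure D2:**
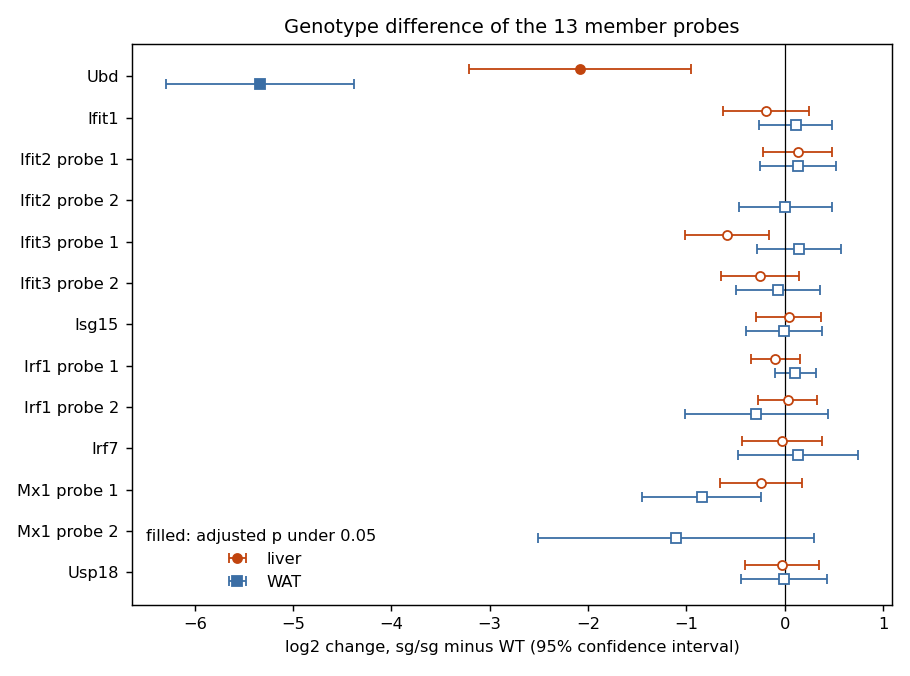
Genotype difference of each probe, sg/sg minus WT, in liver (circles) and WAT (squares), as log2 change with its 95% confidence interval; filled symbols have an adjusted p under 0.05. Ubd is the only probe with filled symbols, at -2.08 in liver and -5.34 in WAT, and Ifit3 probe 1 in liver (-0.58) and Mx1 probe 1 in WAT (-0.84) have intervals below 0 without passing the threshold.

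Among the IFIT genes, which lie together on chromosome 19, Ifit3 came nearest to a difference. Ifit3 probe 1 (34289919 to 34289978 in mm7) had levels of 1.96, 1.88, 0.98, 1.75 and 1.97 on sg/sg liver arrays 1 to 5, against 2.28, 2.16, 2.59, 2.42 and 2.01 on WT liver arrays 1 to 5. All sg/sg values lay under all WT values, with sg/sg array 3 far under the rest. The change was -0.58 (SE 0.19, adjusted p = 0.0653), and -0.40 (SE 0.44) within slide 2. In WAT the same probe was at 0.15 (SE 0.19). The effects in the 2 tissues differed by 0.73 (SE 0.29, adjusted p = 0.0883), WAT minus liver. Ifit3 probe 2 lies 24.0 kb away and was designed on another transcript (AK077243), so whether it reads Ifit3 is uncertain. It was at -0.25 (SE 0.18) in liver and -0.07 (SE 0.19) in WAT.

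Ifit1 (34350610 to 34350669) lay between -1.67 and -0.75 in sg/sg liver and between -1.25 and -0.56 in WT liver. In WAT it lay between -1.69 and -1.24 on sg/sg arrays and between -1.90 and -1.10 on WT arrays. The genotypes overlapped in each tissue, with changes of -0.19 (SE 0.20) in liver and 0.11 (SE 0.17) in WAT. Ifit2 probe 1 (34277058 to 34277117) overlapped as well, at 0.13 (SE 0.16) in liver and 0.13 (SE 0.17) in WAT. Ifit2 probe 2 (34275121 to 34275180) was at 0.01 (SE 0.21) in WAT. The 95% intervals of Ifit1 and Ifit2 in WAT all lay between -0.47 and 0.52, so decreases of the size seen for Ubd lie far outside them.

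Isg15 gave 0.04 (SE 0.15, 95% interval -0.29 to 0.37) in liver and -0.00 (SE 0.17, -0.39 to 0.38) in WAT. The files place its probe on chromosome 17 of mm7, whereas RefSeq has the gene on chromosome 4 of GRCm38. Usp18, the ISG15 protease, was at -0.02 (SE 0.17) in liver and -0.01 (SE 0.20) in WAT (chromosome 6, 121295796 to 121295855). The spread of Isg15 within WAT was narrow in sg/sg mice, from 0.16 to 0.34, and wider in WT mice, from -0.11 to 0.87.

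The transcription factors did not pass either. Irf7 (chromosome 7, 137682028 to 137682378) was at -0.02 (SE 0.18) in liver and 0.13 (SE 0.28) in WAT. Its levels in WAT were -0.37, -0.54, -0.46, -1.74 and -0.44 on sg/sg arrays 1 to 5, against -1.18, -0.79, -0.29, -0.99 and -0.98 on WT arrays 1 to 5. Sg/sg array 4 lay below every other WAT array, and the 4 other sg/sg arrays lay between the highest WT array and the rest. Irf1 probe 1 (chromosome 11, 53733970 to 53734029) was at -0.09 (SE 0.11) in liver and 0.11 (SE 0.09) in WAT. Irf1 probe 2 (53730701 to 53730846) was at 0.03 (SE 0.13) in liver and -0.29 (SE 0.33) in WAT. On sg/sg WAT array 4 probe 2 read -2.35, against -0.84 to -0.55 on the other sg/sg arrays, while probe 1 read 3.83 there and lay within its group. The gap between the probes was 6.18 on that array and 4.31 to 4.72 on the other 9 WAT arrays.

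Mx1 was dim. RefSeq lists the gene as a transcribed pseudogene in the C57BL/6J reference, the laboratory strain being known for a defective Mx1. Mx1 probe 1 (chromosome 16, 97829378 to 97829437) had levels of -4.56, -4.82, -4.66, -5.81 and -4.92 on sg/sg WAT arrays 1 to 5, against -4.07, -4.52, -3.49, -4.56 and -3.90 on WT WAT arrays 1 to 5. The groups overlapped by a small margin, with sg/sg array 4 the lowest. The change of -0.84 (SE 0.27, 95% interval -1.45 to -0.24) had an adjusted p of 0.0512, and it passed in 6 of 24 alternative settings, for example at 0.0329 with the replicate number as a block. Its sign turned with normexp background correction, to 0.53, a setting that moved the median of all WAT probes from 0.08 to 0.47. Mx1 probe 2 (97831763 to 97831822) was at -1.11 (SE 0.63, adjusted p = 0.245) in WAT. In liver probe 1 was at -0.24 (SE 0.19).

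The 8 interferon-induced genes varied between arrays of the same group, and single arrays were low or high for most of them. On sg/sg liver array 3 all 10 probes tested besides Ubd were at their lowest in the group, where 15.6% of all probes had their lowest value on that array. On sg/sg liver array 5, 8 of the 10 were at their highest (16.0% of all probes). In WT WAT 11 of 12 probes were highest on array 3 (16.4% of all probes) and 8 of 12 were lowest on array 1 (20.7%). Ubd shared the low value of sg/sg liver array 3 and the high value of sg/sg liver array 5, but in WT WAT it was highest on array 2 and lowest on array 5. The arrays were not chosen by any label, and what sets them apart was not tested. Without sg/sg liver array 3, Ubd in liver changed by -1.63 (SE 0.37, adjusted p = 0.0324).

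**Figure D3:**
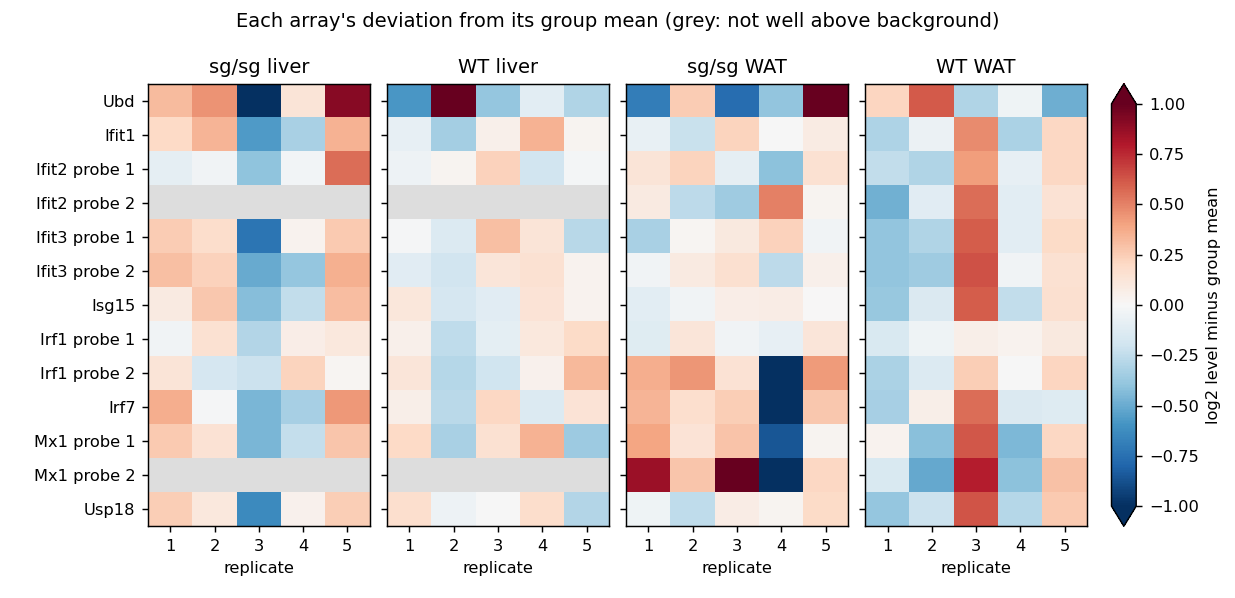
Deviation of each array from the mean of its own group for the 13 probes, as log2 difference (colour scale from -1 to 1, deeper colours beyond); columns are replicates 1 to 5, and grey marks probes not well above background in a group. Sg/sg liver array 3 is low and WT WAT array 3 is high across most interferon-induced genes, and sg/sg WAT array 4 is low for Irf7, Irf1 probe 2 and Mx1.

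Likeness across arrays was described by Pearson's r over the 20 arrays after each tissue's mean was subtracted, with both genotypes kept in. Ifit1 was most like Isg15 among the set (r = 0.85), then Ifit3 probe 2 (0.84), Usp18 (0.79), Ifit3 probe 1 (0.75), Irf1 probe 1 (0.60) and Irf7 (0.52). Its r with Ubd was 0.01. Within the set Ubd was most like Mx1 probe 1 (0.61) and Mx1 probe 2 (0.40), and its r with the other probes lay between -0.12 and 0.24. Outside the set, the genes most like Ifit1 were Fbxo39 (0.82), LOC631323 (0.77), the MHC class I gene H2-T24 (0.76), the interferon-induced Ifi44 (0.75) and the nucleotide kinase Cmpk2 (0.72). For Irf1 they were the interferon-inducible GTPases Gvin1 (0.79) and Igtp (0.71), together with Morn2 (0.74), Arid5b (0.73) and Ifng (0.70), the gene of interferon-gamma. For Ubd they were Snrnp25 (0.96), a probe of the interferon-gamma receptor chain Ifngr2 (0.95), Uvrag (0.94), Dock8 (0.94) and Chil4 (0.93), all of them called lower in sg/sg WAT at -0.55 to -1.79. Points in these correlations share slides and array-wide effects, and for Ubd most of the spread is the difference between genotypes in WAT.

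In WT mice some probes of the set were higher and others lower in WAT than in liver, as were most probes tested. Of 13 probes 5 were lower and 3 higher in WT WAT than in WT liver, where 39.1% and 35.0% of all probes were, 74.1% together. Tissue, slide and scan cannot be told apart here, as liver and WAT arrays lay on different slides. Usp18 averaged -0.91 ± 0.43 in WT WAT and 1.79 ± 0.19 in WT liver, a difference of -2.70 (SE 0.19). Irf7 was lower in WT WAT by -2.25 (SE 0.25) and Isg15 by -1.72 (SE 0.17), and in both cases every WT WAT array lay under every WT liver array. Ifit1 differed by -0.67 (SE 0.19) with overlapping groups. Ifit3 probe 1 differed by -0.49 (SE 0.20, adjusted p = 0.0345), a call that was lost in 8 of 28 settings. Ifit2 probe 1 was the opposite, at 1.24 (SE 0.17) with every WT WAT array above every WT liver array. Ifit2 probe 2 had no WT liver array well above background. With WT liver set to a bound, the lowest signal well above background of each array, it was 2.16-fold higher in WT WAT. The measured means were -4.24 in WT WAT and -6.45 in WT liver (limma, adjusted p = 1.40e-08), although with normexp background correction the difference was -0.09. Irf1 probe 1 was at 0.08 (SE 0.10), but at 0.78 (adjusted p = 9.07e-06) with quantile normalization. Such scalings moved the median of all probes in this contrast between -0.57 and 0.08, from -0.10.

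**Figure D4:**
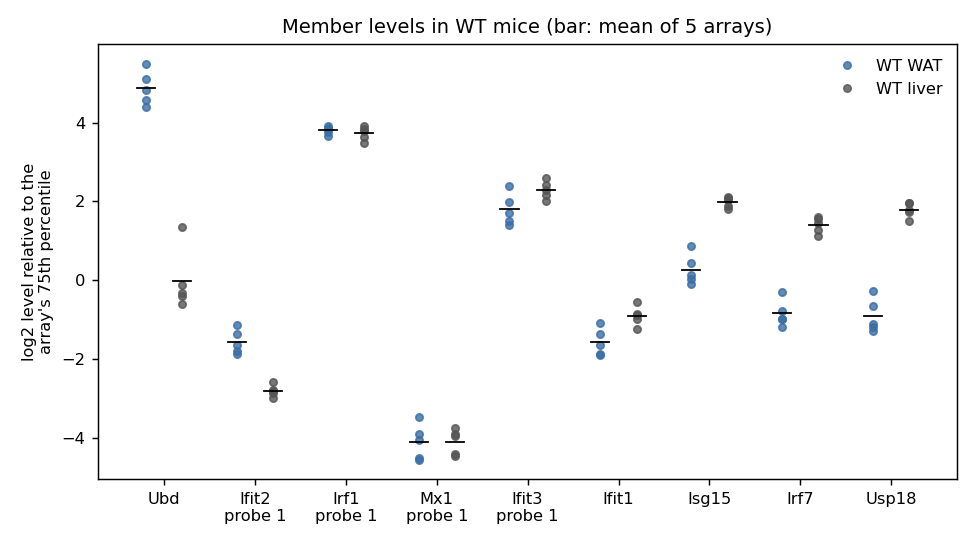
Levels in WT WAT (left of each pair) and WT liver (right) for 1 probe per gene, as log2 relative to the 75th percentile of each array; points are arrays, bars means of 5. Ubd and Ifit2 probe 1 are higher in WT WAT, Isg15, Irf7 and Usp18 are lower there, and heights of different genes are not comparable.

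The other genes of the pathway are given from lists, each gene by its brightest probe, starting with ligands and receptors. Among all genes read this way, 9.21% were higher and 6.62% lower in sg/sg liver, and 13.7% were higher and 9.22% lower in sg/sg WAT. In WAT normexp called 757 of all 32315 probes higher and 733 lower, against 4108 and 2962 in the main fit. It also moved the median change of all WAT probes from 0.08 to 0.47. The list counts and single WAT values with normexp below are to be read beside these. With slide as a fixed block, no list gene was called in liver, so each liver call below is one in which genotype and slide are hard to tell apart. Of the interferons and their receptors 0 were higher and 1 of 8 lower in liver, and 0 were higher and 2 of 9 lower in WAT, a number that was 0 to 3 with single arrays left out. Ifng was dim in both tissues, at 0.29 (SE 0.21) in liver and 0.38 (SE 0.36) in WAT. Ifnb1 and 5 further interferon genes did not pass the brightness filter in either tissue. The receptor chain Ifngr2 was lower in liver at -0.40 (SE 0.12, adjusted p = 0.0473), and it read -0.35 (SE 0.19, adjusted p = 0.203) in WAT by this probe. By its other probe, the one most like Ubd, it was at -0.69 (adjusted p = 0.00162) in WAT and at -0.23 (adjusted p = 0.117) in liver. The type I receptor chain Ifnar2 was lower in WAT at -0.41 (SE 0.11, adjusted p = 0.0208), as was Il10rb at -0.40 (SE 0.12), a chain shared by the interferon-lambda and interleukin receptors. With median scaling their adjusted p were 0.103 and 0.0586, and with normexp 0.0513 and 0.0998.

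Of 13 JAK-STAT genes none passed in liver, and in WAT 3 were lower, but 1 with median scaling and 1 with normexp. Among them were the phosphatase Ptpn6 (-1.08, SE 0.17, adjusted p = 0.00233) and the kinase Jak1 (-0.37, SE 0.09). Nucleic acid sensing, which lies upstream of interferon, had 2 genes higher and 8 lower of 17 in WAT, and 3 higher and 0 lower of 17 in liver. With normexp 0 were higher and 3 lower in WAT, and with median scaling 0 and 7. In WAT the DNA sensor Cgas (-0.87, SE 0.12), the transcription factor Irf5 (-1.58, SE 0.22), the adaptor Traf3 (-0.59, SE 0.11) and the kinase Ikbke (-1.21, SE 0.24) were lower. With normexp Cgas was at -0.21 (adjusted p = 0.671) and Ikbke at -0.39 (adjusted p = 0.408). In liver the RNA sensor Tlr7 (0.64, SE 0.16), Irf5 (0.85, SE 0.22) and the DNA sensor Tlr9 (0.66, SE 0.17) were higher. Irf5 thus changed in opposite directions in the 2 tissues, with a difference of -2.43 (SE 0.32, adjusted p = 0.000113), WAT minus liver, and of -2.20 (SE 0.52, adjusted p = 0.0407) with slide as a fixed block.

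In the list of other interferon regulatory factors, which also counts the corepressor Irf2bp1, 2 of 8 genes were higher in liver. In WAT 2 were higher and 2 lower of 9. Irf8, a factor of myeloid cells, was at -1.22 (SE 0.22, adjusted p = 0.0041) and Irf3 at 0.50 (SE 0.12) in WAT. Irf2bp1, a corepressor that binds IRF2, was higher in both tissues, at 0.50 (SE 0.10) in liver and 0.47 (SE 0.08) in WAT. Genes of ISG15 and FAT10 conjugation had none of 11 past the threshold in liver and 2 lower in WAT (0 with median scaling), among them the ISG15 ligase Trim25 (-0.42, SE 0.12). Uba6, which activates FAT10, was at 0.07 (SE 0.16) in WAT and -0.40 (SE 0.15, adjusted p = 0.0924) in liver, and its partner Ube2z was at -0.05 (SE 0.08) in WAT and 0.24 (SE 0.09, adjusted p = 0.0957) in liver.

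Other type I interferon-induced genes had 2 higher and 0 lower of 38 in liver, with a median of 0.01 beside 0.05 over all genes. In WAT 2 were higher and 6 lower of 41, with a median of -0.15 beside 0.09. The number lower was 3 to 10 with single arrays left out and 3 with normexp, where Oas3 had the other sign. The lower genes in WAT included Slfn2, a growth regulator of lymphoid and myeloid cells (-1.02, SE 0.15), the nucleotide hydrolase Samhd1 (-0.74, SE 0.13) and the antiviral synthetase Oas1a (-0.93, SE 0.17, adjusted p = 0.00422). Ifi27l2a was higher there, at 0.59 (SE 0.13). Ifitm1, a membrane protein that blocks virus entry, was higher in both tissues, at 0.57 (SE 0.14) in WAT and 0.39 (SE 0.09) in liver, and the GTPase Ifi47 was higher in liver at 0.56 (SE 0.15). Interferon-gamma-induced genes had 0 higher and 2 lower of 28 in liver, and 0 higher and 3 lower of 28 in WAT, where quantile normalization gave 7 lower. The guanylate-binding protein Gbp6 was lower in both tissues, at -1.12 (SE 0.22, adjusted p = 0.0134) in liver and -0.91 (SE 0.15, adjusted p = 0.00252) in WAT, and Gbp7 was lower in liver at -0.61 (SE 0.14). Ciita, the activator of MHC class II genes, was at -1.37 (SE 0.18) and the chemokine Cxcl10 at -1.44 (SE 0.24) in WAT, each without overlap between the genotypes.

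The genes of NF-kB and its targets, which share with Ubd the known response to tumour necrosis factor, had 1 higher and 5 lower of 14 in WAT, with a median of -0.38, and 2 higher and 0 lower of 13 in liver. With normexp Ccl2 alone was called in WAT, and with median scaling 0 were higher and 5 lower. Ccl2, a chemokine that attracts monocytes, had levels of 1.11, 1.59, 1.98, 1.39 and 2.12 on sg/sg WAT arrays 1 to 5, against 4.92, 4.16, 3.51, 4.49 and 4.12 on WT WAT arrays 1 to 5. Every sg/sg array lay under every WT array, and the change was -2.60 (SE 0.27, adjusted p = 0.000652). Tnf itself was dim and lower in WAT, at -1.56 (SE 0.16, adjusted p = 0.000644). With normexp background correction it was at -0.04 (adjusted p = 0.965), where the median of all WAT probes was 0.47. The cytokine Il6, dimmer still, was at -1.24 (SE 0.22), and its sign turned to 0.70 with normexp. The NF-kB inhibitor Tnfaip3 was at -0.58 (SE 0.14) in WAT. In liver Ccl2 was at -0.47 (SE 0.34, adjusted p = 0.36) and Tnf at 0.17 (SE 0.24, adjusted p = 0.659). The NF-kB subunit Rela was higher in liver, at 0.34 (SE 0.08), and the adhesion molecule Icam1 at 0.66 (SE 0.16).

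**Figure D5:**
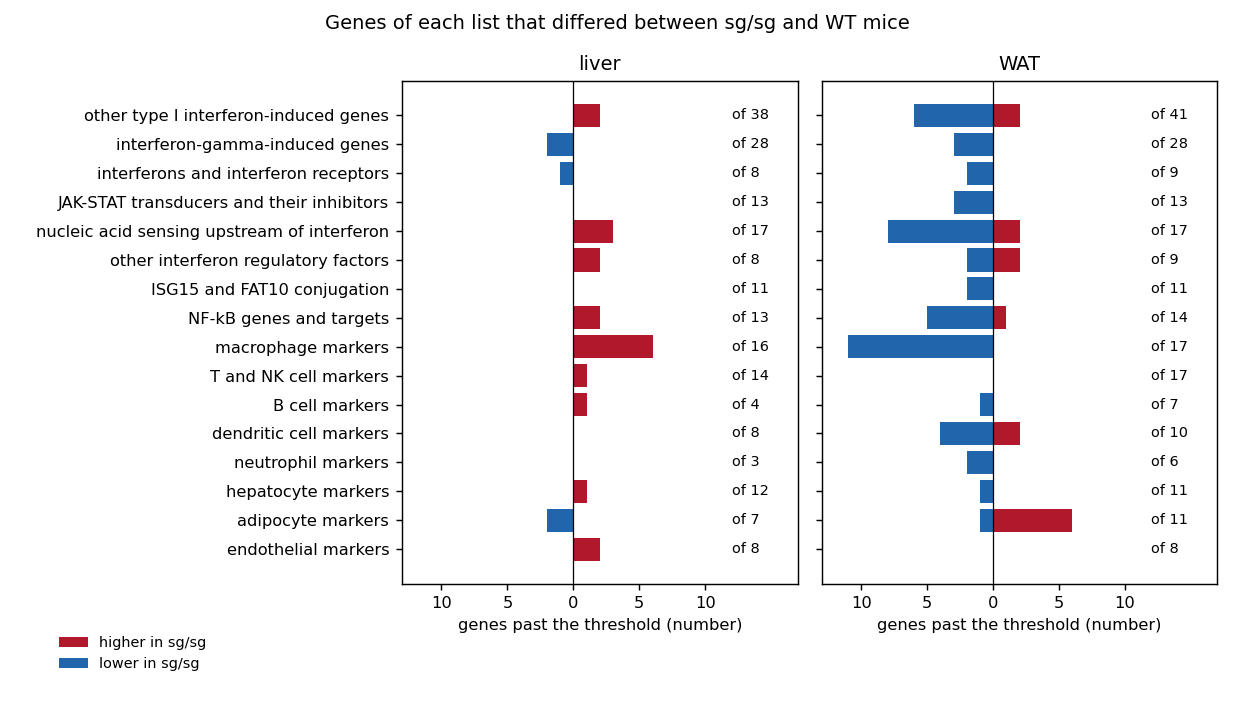
Number of genes past the threshold in each list, higher (right of 0) and lower (left of 0) in sg/sg mice, in liver and WAT; the number at the right edge is how many genes of the list were tested. Macrophage markers have 11 of 17 lower in WAT and 6 of 16 higher in liver. Nucleic acid sensing has 8 of 17 lower in WAT, against 3 of 17 with normexp background correction. Of all 32315 WAT probes 2962 are called lower, and 733 with normexp.

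Most macrophage markers were, like Ubd, lower in sg/sg WAT. Of 17 macrophage markers 11 were lower in sg/sg WAT and 0 higher, with a median of -0.77. The number lower was 7 to 12 under other scalings and 8 to 12 with single arrays left out. The sum of their levels on the linear scale, relative to the 75th percentile, was 183 to 244 on sg/sg and 248 to 399 on WT arrays of WAT, without overlap. The integrin Itgax, known from inflammatory adipose macrophages, was at -3.50 (SE 0.39) and the lipid receptor Trem2 at -2.86 (SE 0.43), with the mannose receptor Mrc1 at -0.74 (SE 0.12) and Itgam at -1.30 (SE 0.22). On sg/sg WAT arrays 1 to 5 the macrophage sum was 183, 209, 244, 200 and 220. Ubd there was at -1.14, -0.20, -1.22, -0.85 and 1.14. Array 3 thus had the highest sum and the lowest Ubd, while the other sg/sg arrays had the same order in both. On WT WAT arrays 1 to 5 the sum was 346, 399, 267, 248 and 274. Ubd there was at 5.10, 5.50, 4.59, 4.84 and 4.40, with array 2 highest in both. In liver, where Ubd was lower, 6 of 16 markers were higher in sg/sg mice, 0 were lower and 10 did not pass. Among the higher were C1qa at 0.81 (SE 0.17), C1qc at 0.60 (SE 0.14), Cd68 at 0.68 (SE 0.16) and C1qb at 0.76 (SE 0.19). Itgax did not pass there, at levels of -4.13 to -3.36 on sg/sg and -3.56 to -1.90 on WT liver arrays. Trem2 lay at -0.94 to 0.79 on sg/sg and -0.71 to 1.09 on WT liver arrays. The number higher was 1 to 9 with single arrays left out. The summed level of the 16 markers was 148 to 189 on sg/sg arrays and 94.2 to 157 on WT arrays of liver. The part of macrophages in the Ubd result was not tested.

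Markers of other cell types were read the same way. T and NK cell markers had 0 of 17 past the threshold in WAT, with sums of 6.04 to 8.81 on sg/sg and 5.95 to 10.5 on WT arrays. In liver 1 of 14 was higher (Gzmb, 1.06, SE 0.21), with sums of 3.21 to 5.81 on sg/sg and 3.14 to 6.11 on WT arrays. Dendritic cell markers had 2 higher and 4 lower of 10 in WAT (0 and 0 with normexp), among them Ccr7 (-1.35, SE 0.18) and Clec9a (-1.26, SE 0.20, but 0.37 with normexp), and none of 8 past it in liver. In WAT their sums were 1.49 to 1.86 on sg/sg and 1.12 to 1.67 on WT arrays, and in liver 1.03 to 1.33 on sg/sg and 1.30 to 9.19 on WT arrays. Neutrophil markers had 2 of 6 lower in WAT (S100a8, -2.96, SE 0.25, and Ltf, -2.11, SE 0.49, the second at 0.59 with normexp), although the median over the 6 was 0.34. Their sums were 0.684 to 1.54 in sg/sg WAT and 1.47 to 2.44 in WT WAT, and none of 3 passed in liver. B cell markers had 1 of 7 lower in WAT (Cd22, -1.49, SE 0.32, with a list median of 0.46). In liver 1 of 4 was higher, with a list median of 0.04.

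Adipocyte markers had 6 of 11 higher and 1 lower in WAT (0 and 0 with normexp), with sums of 1235 to 1699 in sg/sg WAT and 736 to 1152 in WT WAT. In liver 2 of 7 were lower, Cfd (-6.32, SE 0.85) and Cidec (-3.42, SE 0.69), and Adipoq, Plin1, Lep and Retn did not pass the brightness filter. The sum was 21.0 to 24.9 in sg/sg liver and 25.0 to 72.1 in WT liver. The WT liver array with the highest sum, number 2, was also the one with the highest Ubd (1.35), and it had the highest dendritic marker sum and the lowest hepatocyte sum (2723, against 3088 to 3747 on the other WT liver arrays). Without it Ubd in liver changed by -1.74 (SE 0.46, adjusted p = 0.0479). Hepatocyte markers had 1 of 12 higher in liver, Tat (0.88, SE 0.16), and 1 of 11 lower in WAT, Ass1 (-0.84, SE 0.23). Endothelial markers had 2 of 8 higher in liver, Egfl7 (0.57, SE 0.09) and Cldn5 (0.61, SE 0.11), and 0 of 8 past it in WAT. In liver the endothelial sum was 21.5 to 24.5 on sg/sg and 15.4 to 20.7 on WT arrays, and the hepatocyte sum was 3814 to 4437 on sg/sg and 2723 to 3747 on WT arrays, each without overlap. The part of these cell types in the results above was not tested.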

How the data were processed

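The authors made the deposited spot intensity with Agilent Feature Extraction (version 9.5.3.1), per the file headers, a program that subtracts background with spatial detrending and gives dim spots a surrogate value. Their separate value table is linear and uncentred, being equal to the scanner intensity for every probe compared. Its column medians were 42.5 to 64.9 (sg/sg) and 55.5 to 65.6 (WT) for liver, and 88.8 to 156 (sg/sg) and 131 to 221 (WT) for WAT. Other columns used per the file headers mark a spot as well above background, saturated or an outlier.

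Here, control spots and outlier spots were left out, spots of a probe were averaged, and each array was scaled to its 75th percentile before log2. Probes well above background on at least 4 of 10 arrays and missing on at most 2 were tested with lmFit and eBayes of limma 3.58.1 (R 4.3.3), with two-sided p-values adjusted by Benjamini-Hochberg over the probes tested and a threshold of 0.05. Genotypes were compared in each tissue apart. The difference of genotype effects and the contrast of tissues came from 1 fit to all 20 arrays. Groups came from the sample labels. A bound for a probe not well above background in a group uses the lowest signal well above background of each array. The number of arrays limits the precision.

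The 9 genes, the other lists and the motifs were chosen with earlier results of these data known. The narrow kappaB motif first searched gave no match in these genes, and the common consensus was taken after that. Named genes are all probes of the set and of Rora, up to 4 genes with the smallest p from each list in each tissue, and the 5 genes most like Ubd, Ifit1 and Irf1. Ifng, the interferon genes below the filter, Uba6, Ube2z, genes whose sign turned with normexp, and liver values of Ccl2 and Tnf were named after their values were seen. Names came from the accession through RefSeq (22951 probes) or from the file (11758 probes), and 6465 probes kept an identifier. Some list genes are not reported here. Probe coordinates are those of the files (mm7), without exon or UTR annotation.

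Data were simulated with 200 probes changed by 1 log2 unit. Of these, 79.5% were recovered in liver (24675 probes), 50.5% in WAT (32315 probes) and 40.5% for the difference of tissues (32626 probes). The simulated noise was independent between probes, without slide effects, and far fewer probes were changed than were called in the data. The shares recovered therefore do not give the power of the comparisons themselves. Alternatives were quantile and median scaling, normexp background correction (offset 50), the deposited table, other filters, 1 probe per gene, slide and replicate number as blocks (slide chosen after seeing the data for the difference of tissues), single slides, all arrays in 1 fit, and leaving out each array.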

Additional observations from a re-analysis of the deposited data

Results flagged for a closer look

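Ubd differed between the tissues: its genotype effect in WAT minus that in liver was -3.26 (SE 0.71, adjusted p = 0.00443), tested by an interaction term, and -3.25 (adjusted p = 0.154) with slide as a fixed block. Ubd was lower on all 5 sg/sg arrays than on all WT arrays of the same tissue in both tissues.

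Of 52 groups of 5 arrays (13 probes in 4 groups), 7 had an array far from the other 4 by Dixon's test at the 95% level, where chance gives 2.6. On sg/sg liver array 3, Ubd was at -3.90 with the next array at -1.98, Ifit3 probe 1 at 0.98 with the next at 1.75, and Usp18 at 1.13 with the next at 1.81. On WT liver array 2, Ubd was at 1.35 with the next at -0.12. On sg/sg WAT array 4, Irf1 probe 2 was at -2.35 with the next at -0.84, Irf7 at -1.74 with the next at -0.54, and Mx1 probe 2 at -9.39 with the next at -6.61, where that spot was not well above background. The flags of 1 array are not independent of each other.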

How the results depend on the processing

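The lower Ubd in WAT kept its direction in all 24 settings tried and was past the threshold in 21, the exceptions being the single slides (adjusted p 0.126 to 0.363), where no probe was called at all. In liver it kept its direction in 22 of 22 and its call in 17; besides the losses named with the result, the adjusted p was 0.059 with no filter on dim probes. Liver calls over all probes were 3709, against 1289 with no filter, 3 with slide as a fixed block, 0 within slide 2 alone (1990 at an unadjusted p under 0.05, limma) and 1656 with the replicate number as a block, and 1224 to 4150 when each array was left out in turn; without WT replicates 2, 3 and 4 they were 2196, 1509 and 1224, and without sg/sg replicates 3 and 5 they were 2207 and 2289. Median scaling turned the liver split from 2126 higher and 1583 lower to 835 and 2315. WAT calls were 7070, against 1490 with normexp, 4492 with the replicate block, 0 within slides 1, 2 and 3 (4778, 5130 and 4292 at an unadjusted p under 0.05, limma) and 5027 to 9996 with each array left out. Same-numbered arrays correlated at -0.14 to 0.17 in their deviations over 20 pairs, and 6 correlated best with their own number. Such correlations cannot show whether same-numbered arrays share a mouse, which the labels do not say. The replicate block is therefore given as a check only.

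Of the set, liver counts were 1, but 2 with normexp (with Ifit3 probe 1, adjusted p = 0.0308). With all 20 arrays in 1 fit the liver count was also 2, there with Ifit2 probe 2, which was not well above background on any liver array. The liver count was 0 with no filter, with slide as a fixed block, and without WT replicate 3 or 4 (0 to 1 over single arrays left out). WAT counts were 1, but 2 with a stricter filter, 1 probe per gene, all 20 arrays, the replicate block, or without WT replicate 2 or 4 (1 to 2), each time with Mx1 probe 1, and 0 within single slides. For the difference of tissues the count was 1, but 0 with slide as a fixed block (chosen after seeing the data; 818 of all probes called, against 5337), 2 with quantile normalization (with Ifit2 probe 2, 1.70) and 1 to 3 with arrays left out: 2 without WT liver replicate 5, and 3 without WT WAT replicate 3, then with Ifit2 probe 2 (0.87) and Ifit3 probe 1 (0.88). The WT tissue contrast gave 8, and 7 to 9 with arrays left out; Ifit2 probe 2 turned to -0.0949 with normexp. Of the 240 liver values under alternatives, 30 had another sign than the main value, and of the 307 WAT values 37 did, none of them past the threshold. Of the 64 list genes called in WAT, Ubd included, 63 were called with quantile normalization, 49 with median scaling and 22 with normexp, where 6 had the other sign, none past the threshold (Oas3, Il6, Flt3, Clec9a, Ccr9 and Ltf). Of 25 called in liver, 23, 16 and 25 were, all with the same sign. The causes were not tested. Dim probes, Mx1 and Ifit2 probe 2 above all, are limited by signal over background.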
